A study of Mus musculus with 26 samples.

Results

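The genes described here encode 10 protease inhibitors of mouse myeloid cells. They are 4 clade B serpins (Serpinb1a, Serpinb6a, Serpinb6b and Serpinb9), a pair of clade A serpins (Serpina3f and Serpina3g), the small secreted inhibitor Slpi, and 3 cystatins (Cst3, Cst7 and Cstb). They were chosen by gene symbol, and all 10 were found among the 52636 genes in the count files. The 26 RNA-seq libraries fall into 6 groups. Granulocyte–macrophage progenitors (GMPs) and common myeloid progenitors (CMPs) were sorted from bone marrow of female mice, with 4 wild-type (WT) and 4 Prss57-/- (KO) libraries of each. Bone marrow-derived mast cells (BMMCs) were grown from GMPs of male mice with IL-3 and SCF, with 5 libraries of each genotype. The labels name the knockout NSP4 KO and the BMMC samples BMMC-P3. NSP4 is the serine protease encoded by Prss57, and the KO mice lack exon 2 of this gene in every cell. The KO and WT mice were littermates from a line made with C57BL/6N embryonic stem cells. GMPs were gated as Lin- SCA-1- CD117+ CD34+ CD16/32hi cells and CMPs as the matching CD16/32lo cells, so both were populations enriched by surface markers and not pure cell types. All progenitor libraries came from one sequencing run and all BMMC libraries from another. Hence cell type cannot be told apart from sex, culture and run wherever BMMCs are set beside progenitors.

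Granules of neutrophils and mast cells hold very high amounts of serine proteases, and their lysosomes hold cysteine cathepsins. Serpins inhibit a protease by a trap that uses up the inhibitor: the protease cleaves an exposed loop and stays bound to the serpin. Clade B serpins lack a signal peptide and stay mostly inside the cell, where they protect it from proteases that escape the granule. Cystatins block the active site of cysteine cathepsins without being cleaved. Cystatin F, the product of Cst7, enters lysosomes and inhibits cathepsin C, the enzyme that activates the granule serine proteases.

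The clade B members lie together on chromosome 13 of GRCm38, with Serpinb1a (ENSMUSG00000044734) from 32842092 to 32851185 on the reverse strand, Serpinb6b (ENSMUSG00000042842) from 32965209 to 32979067 and Serpinb9 (ENSMUSG00000045827) from 33003250 to 33017957 on the forward strand, and Serpinb6a (ENSMUSG00000060147) from 33917918 to 34002794 on the reverse strand. Serpina3f (ENSMUSG00000066363), from 104214544 to 104221129, and Serpina3g (ENSMUSG00000041481), from 104236245 to 104241939, are neighbours on the forward strand of chromosome 12. On chromosome 2 lie Cst3 (ENSMUSG00000027447), from 148871722 to 148875692, and Slpi (ENSMUSG00000017002), from 164354070 to 164389095, both on the reverse strand, and Cst7 (ENSMUSG00000068129), from 150570415 to 150578944 on the forward strand. Cstb (ENSMUSG00000005054) lies on the forward strand of chromosome 10 from 78425669 to 78427622. All are annotated as protein coding.

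The promoter sequences of 4 members are shown because these genes carried the differences described below: Serpina3f and Serpina3g stood apart in the same BMMC library, and Cst7 and Slpi were higher in GMPs than in CMPs. Each run is the 250 bases before a RefSeq transcription start in GRCm38.p6, 5′ to 3′ on the strand of the gene. RefSeq promoters were matched for 8 of the 10 members, and Serpinb1a and Cstb had no entry. Capitals mark TTCNNNGAA, the gamma-activated sequence (GAS) recognised by STAT factors, in the first pair of runs. They mark AGGAAGT, a core recognised by ETS factors, in Cst7, and TTGCNNAA, a form of the C/EBP motif, in Slpi, where the match is on the opposite strand.
Serpina3f, chr12:104214294-104214543, forward strand: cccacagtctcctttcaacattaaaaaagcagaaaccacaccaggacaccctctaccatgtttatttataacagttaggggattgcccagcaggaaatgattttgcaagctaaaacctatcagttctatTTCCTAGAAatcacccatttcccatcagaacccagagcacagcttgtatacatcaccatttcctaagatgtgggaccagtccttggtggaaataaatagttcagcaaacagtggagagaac
Serpina3g, chr12:104235897-104236146, forward strand: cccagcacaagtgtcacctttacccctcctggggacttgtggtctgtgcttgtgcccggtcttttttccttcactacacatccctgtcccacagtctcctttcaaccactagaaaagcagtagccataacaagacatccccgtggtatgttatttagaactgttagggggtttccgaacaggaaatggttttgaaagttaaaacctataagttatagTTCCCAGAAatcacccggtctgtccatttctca
Cst7, chr2:150570165-150570414, forward strand: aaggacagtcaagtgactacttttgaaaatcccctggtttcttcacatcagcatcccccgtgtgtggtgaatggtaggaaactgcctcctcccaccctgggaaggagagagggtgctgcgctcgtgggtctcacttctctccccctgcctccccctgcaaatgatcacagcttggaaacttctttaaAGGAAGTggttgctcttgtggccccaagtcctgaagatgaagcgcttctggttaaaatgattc
Slpi, chr2:164356508-164356757, reverse strand: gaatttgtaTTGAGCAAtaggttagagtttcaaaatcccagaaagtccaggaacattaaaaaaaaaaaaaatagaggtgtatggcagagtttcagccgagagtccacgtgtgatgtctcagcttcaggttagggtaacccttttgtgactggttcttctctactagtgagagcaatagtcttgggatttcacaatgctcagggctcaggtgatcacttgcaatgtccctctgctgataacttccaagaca

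The Serpina3f and Serpina3g runs could be aligned over 144 bases with 119 identical (82.6%), apart from 3 gap bases, and the GAS match lies inside this shared stretch of both. It begins 121 bases before the Serpina3f start and 33 bases before the Serpina3g start. The search covered both strands of 32851 RefSeq promoter windows of 250 bases, of which 7.02% held TTCNNNGAA, 7.69% held AGGAAGT, 9.56% held TTGCNNAA and 9.99% held AGATAA, the GATA motif. Motifs were chosen with the expression values known, and a match is a description of the letters only. Besides the matches in capitals, Serpina3f held TTGCNNAA at 2 places and a second annotated start of Serpinb6a held TTCNNNGAA. AGATAA was found in none of the members' windows.

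Totals on genes ranged from 32078404 to 53264762 reads in progenitor libraries and from 18627626 to 28647216 in BMMC libraries. Levels are given as nRPKM, the authors' RPKM, a read count scaled by transcript length and depth, after normalisation by a size factor. This scale allows genes to be compared within a library. Prss57 held 18064 to 26556 reads in WT GMPs and 2261 to 3926 in WT CMPs, against 6 to 25 in KO GMPs and 1 in each KO CMP library. WT BMMCs held only 2 to 27 Prss57 reads and every KO BMMC library 0. In BMMCs this gene is thus a weak check of the genotype labels. The summed level of 6 GMP markers (Mpo, Elane, Prtn3 and others) was 26723 to 40055 nRPKM in GMPs and 3911 to 10038 in CMPs, and that of 8 mast cell markers was 25201 to 75417 in BMMCs and at most 742 in progenitors. Macrophage and dendritic cell markers were also present in the mast cell cultures, with all 10 genes detected in every BMMC library and sums of 1879 to 2818 nRPKM in WT BMMCs. At least 9 of these genes were detected in every progenitor library too, but there they summed to only 73.2 to 144 nRPKM. KO BMMC library 3 stood apart, with 177 nRPKM for these markers against 2382 to 3136 in the other KO BMMC libraries. KO CMP library 2 stood apart in scale: its nRPKM of all genes summed to 785333, against 336085 to 494881 in the other progenitor libraries. Results that rest on either library are given with and without it. Their part in the differences was not tested beyond that. Leaving out other progenitor libraries moved the fits as well, and those counts are given in the last section.

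Cst3, which encodes the secreted cystatin C, was the most abundant inhibitor in both progenitors. It averaged 704 ± 108 nRPKM (SD, n = 4) in WT CMPs and 857 ± 125 (SD, n = 4) in WT GMPs, or 54.8% and 44.1% of the summed mean level of the 10 genes. In WT BMMCs the order was different. Serpinb1a, an inhibitor of neutrophil elastase, cathepsin G and proteinase 3, ranked first at 978 ± 169 nRPKM (SD, n = 5), ahead of Cst3 at 666 ± 66.0 (SD, n = 5), and the libraries of these genes did not overlap. The summed level of the 10 genes was 1284 ± 202 nRPKM in WT CMPs (SD, n = 4), 1945 ± 306 in WT GMPs (SD, n = 4) and 2961 ± 168 in WT BMMCs (SD, n = 5).

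**Figure D1:**
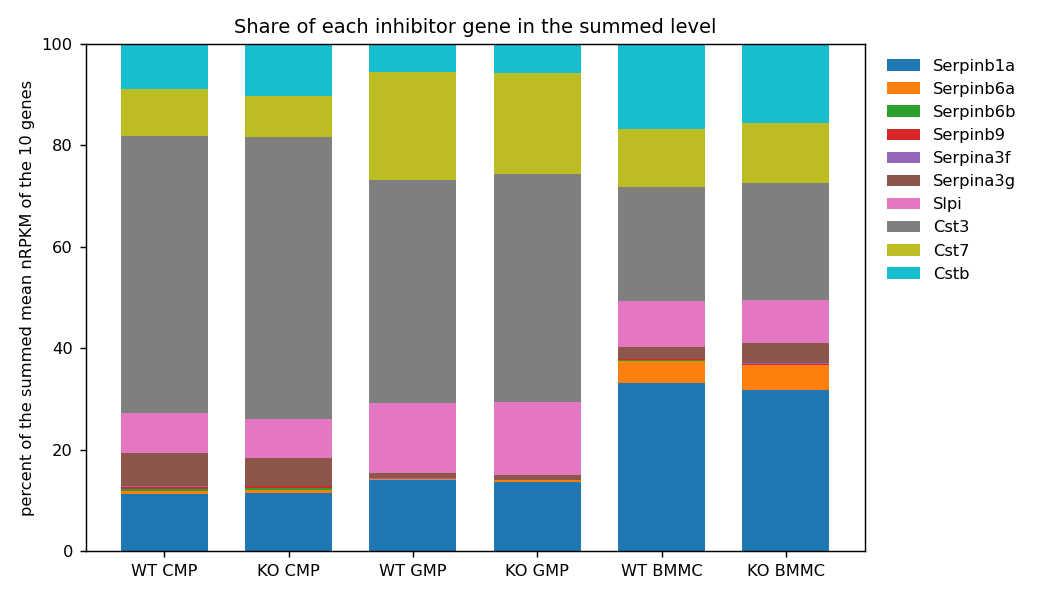
Share of each of the 10 inhibitor genes in their summed mean nRPKM (percent, y axis) in the 6 groups (x axis). Cst3 makes up the largest band in CMPs and GMPs, and Serpinb1a in BMMCs, where it holds 33.0% in WT and 31.8% in KO.

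The next places in WT CMPs, taken by Serpinb1a, Cst7, Cstb, Slpi and Serpina3g at means from 143 down to 84.8 nRPKM, were not separated from their neighbours by the spread between libraries. In WT GMPs, Cst7 at 415 ± 67.4 nRPKM (SD, n = 4) was below all Cst3 values but overlapped with Serpinb1a at 270.5 ± 69.0 (SD, n = 4), which overlapped with Slpi. The 3 low clade B genes, Serpinb6a, Serpinb6b and Serpinb9, averaged 1.44 to 7.63 nRPKM in WT progenitors. Serpina3f was last in WT CMPs, GMPs and BMMCs, at 0.228 to 0.816 nRPKM in all these libraries, which corresponds to 13 to 118 reads.

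**Figure D2:**
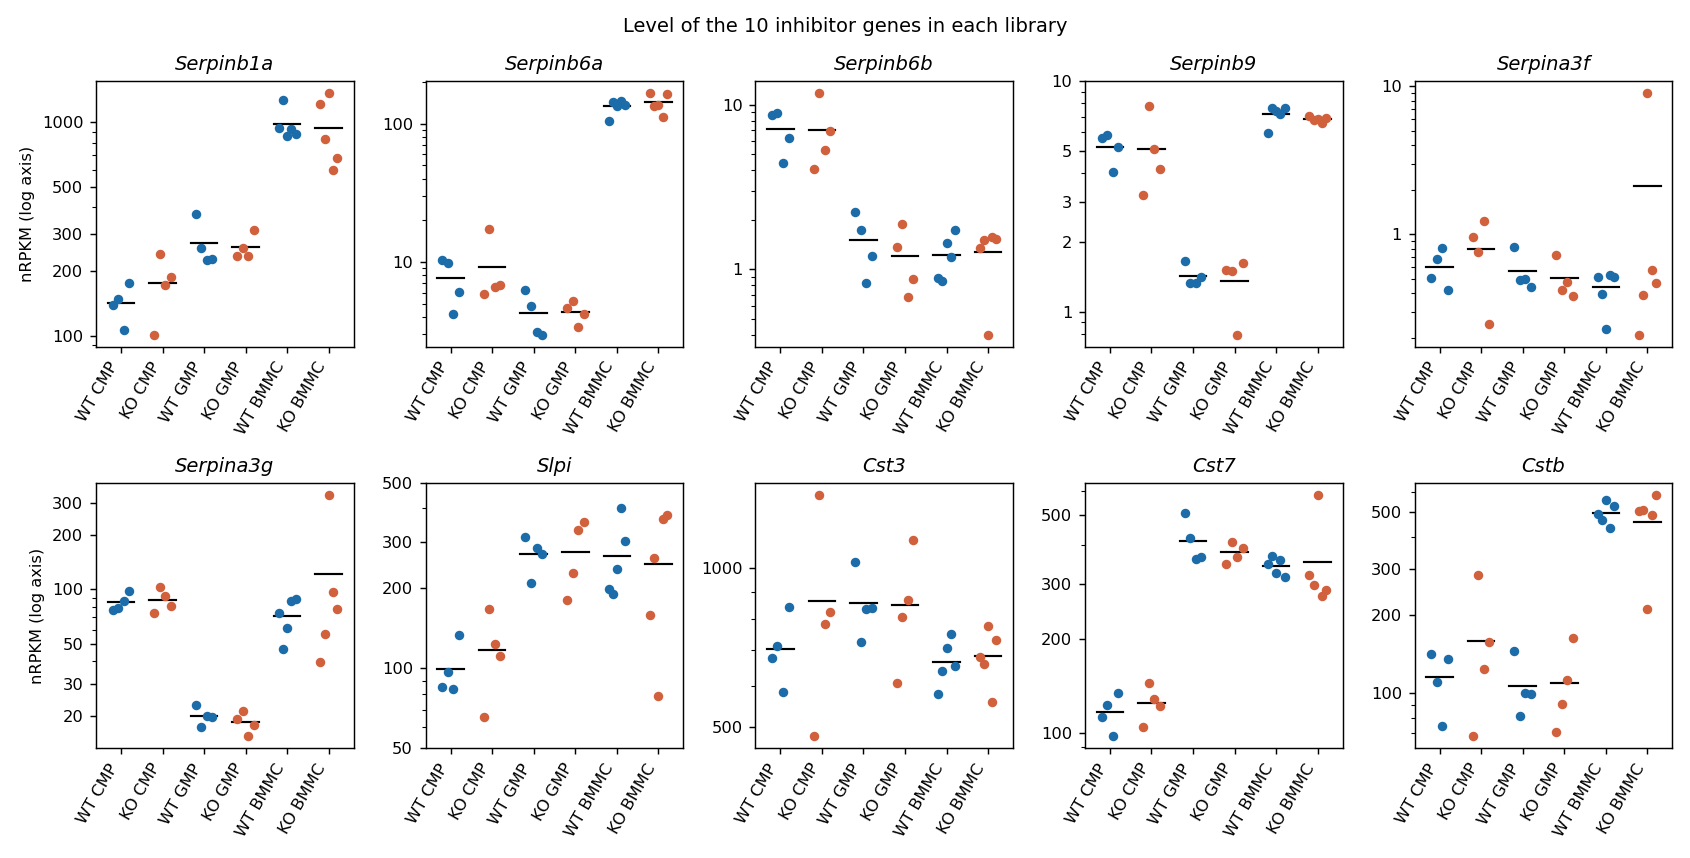
Level of each inhibitor gene in every library (nRPKM, log axis) by group (x axis); points are libraries in blue for WT and orange for KO, and lines are group means. Serpinb6a, Serpinb1a and Cstb are highest in BMMCs, Serpina3g and Serpinb9 are lowest in GMPs, and single KO BMMC points stand away from their group in Serpina3f, Serpina3g, Cst7 and Cstb.

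How the inhibitors differed between CMPs and their GMP progeny was examined within each genotype. In WT mice, 5 of the 10 members passed both thresholds, namely an adjusted p under 0.01 (edgeR quasi-likelihood test, Benjamini-Hochberg correction across every gene in the fit) together with a difference of 2-fold or more. Over all genes, 12.8% did so, 6.28% higher and 6.53% lower in GMPs. Cst7 and Slpi were higher in GMPs, and Serpina3g, Serpinb6b and Serpinb9 were lower. The libraries of the groups did not overlap for these 5 members and Serpinb1a, as for 31.5% of all genes. The median log2 fold change of the members was -0.10, and that of all genes tested was -0.02.

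Cst7 was at 112, 123, 97.4 and 134 nRPKM in the WT CMP libraries and at 507, 423, 361 and 368 in the WT GMP libraries. Every GMP library was above every CMP library, with a log2 fold change of 1.85 (SE 0.14, adjusted p = 6.9e-06). Slpi encodes a secreted inhibitor of elastase and cathepsin G. Its levels were 85.3, 96.6, 84.0 and 134 nRPKM in WT CMPs and 313, 210.2, 284 and 269 in WT GMPs, again without overlap. The log2 fold change was 1.45 (SE 0.18, adjusted p = 0.000145). Serpinb1a was also higher in every WT GMP library, at 225 to 372 nRPKM against 106 to 177 in WT CMPs. Its log2 fold change of 0.94 (SE 0.19, adjusted p = 0.00375) was just under the limit on the fold, and it passed in 3 of 8 fits that left out 1 library.

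Serpina3g, a serpin that inhibits cysteine cathepsins as well as serine proteases, was at 77.2, 78.7, 86.1 and 97.4 nRPKM in WT CMPs and at 22.9, 17.4, 19.9 and 19.6 in WT GMPs. The GMP values were all lower and close together, with a log2 fold change of -2.07 (SE 0.13, adjusted p = 1.82e-06). Serpinb9, which inhibits granzyme B, was at 5.67, 5.83, 4.04 and 5.15 nRPKM in WT CMPs and at 1.67, 1.33, 1.33 and 1.42 in WT GMPs. Its log2 fold change was -1.83 (SE 0.16, adjusted p = 1.21e-05). Serpinb6b, a low-level clade B serpin, was at 8.72, 8.89, 4.43 and 6.32 nRPKM in WT CMPs and at 2.23, 1.74, 0.828 and 1.21 in WT GMPs, the latter from 92 to 231 reads. Its groups did not overlap either, and the log2 fold change was -2.22 (SE 0.32, adjusted p = 0.000435). In bulk libraries, fewer cells that express a gene and less RNA per cell cannot be told apart. The summed level of 6 CMP markers fell beside these genes, from 1584 to 2540 nRPKM in WT CMPs to 73.0 to 129 in WT GMPs, and its part in the differences was not tested. Beside the higher genes, 6 late neutrophil markers rose from 10.5 to 31.4 nRPKM in WT CMPs to 1513 to 3298 in WT GMPs, and 3 basophil markers from 27.8 to 58.9 to 1756 to 2158. Of the basophil markers, Mcpt8 and Prss34 are also on the enzyme list below. The part of these markers was not tested either.

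The other 4 members did not pass in WT progenitors. Serpinb6a, whose product inhibits cathepsin G, had a log2 fold change of -0.81 (SE 0.32, adjusted p = 0.067), with libraries from 2.98 to 6.25 nRPKM in GMPs and from 4.21 to 10.4 in CMPs. With the replicate number as a block its value was -0.79 (SE 0.15, adjusted p = 0.00436), still short of 2-fold. Cst3, Cstb and Serpina3f had log2 fold changes of 0.30, -0.10 and -0.10, with SEs of 0.14, 0.22 and 0.31, and their groups overlapped. Serpina3f rested on at most 118 reads.

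The KO progenitors were fitted on their own libraries. Cst7, Serpina3g, Serpinb6b and Serpinb9 passed, 4 of 10 members, 1 higher and 3 lower, where 8.42% of all genes passed, 4.04% higher and 4.38% lower. The groups did not overlap for 6 members, and for 28.5% of all genes. Cst7 was at 104, 145, 129 and 122 nRPKM in KO CMPs and at 350.0, 411, 367 and 393 in KO GMPs, with a log2 fold change of 1.65 (SE 0.15, adjusted p = 0.000158). Serpina3g was at 74.1, 103, 92.0 and 81.3 nRPKM in KO CMPs and at 19.2, 21.4, 15.4 and 17.9 in KO GMPs, with a log2 fold change of -2.20 (SE 0.17, adjusted p = 6.72e-05). Neither pair of groups overlapped. Serpinb6b and Serpinb9 had log2 fold changes of -2.49 (SE 0.40, adjusted p = 0.00263) and -1.85 (SE 0.31, adjusted p = 0.00327), and without KO GMP library 1 neither passed (adjusted p = 0.0107 and 0.0121), which left 2 members. Serpinb6b also missed the threshold without KO GMP library 3 or 4, and Serpinb9 without KO GMP library 2 or KO CMP library 3. Slpi was higher in all KO GMP libraries, at 180.4 to 354 nRPKM against 65.5 to 167. Its log2 fold change of 1.28 (SE 0.31) had an adjusted p of 0.0181, and without KO CMP library 2 the adjusted p was 0.00661. With the replicate number as a block it also passed, at 1.30, as it did with DESeq2 and in the fit of all 26 libraries.

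**Figure D3:**
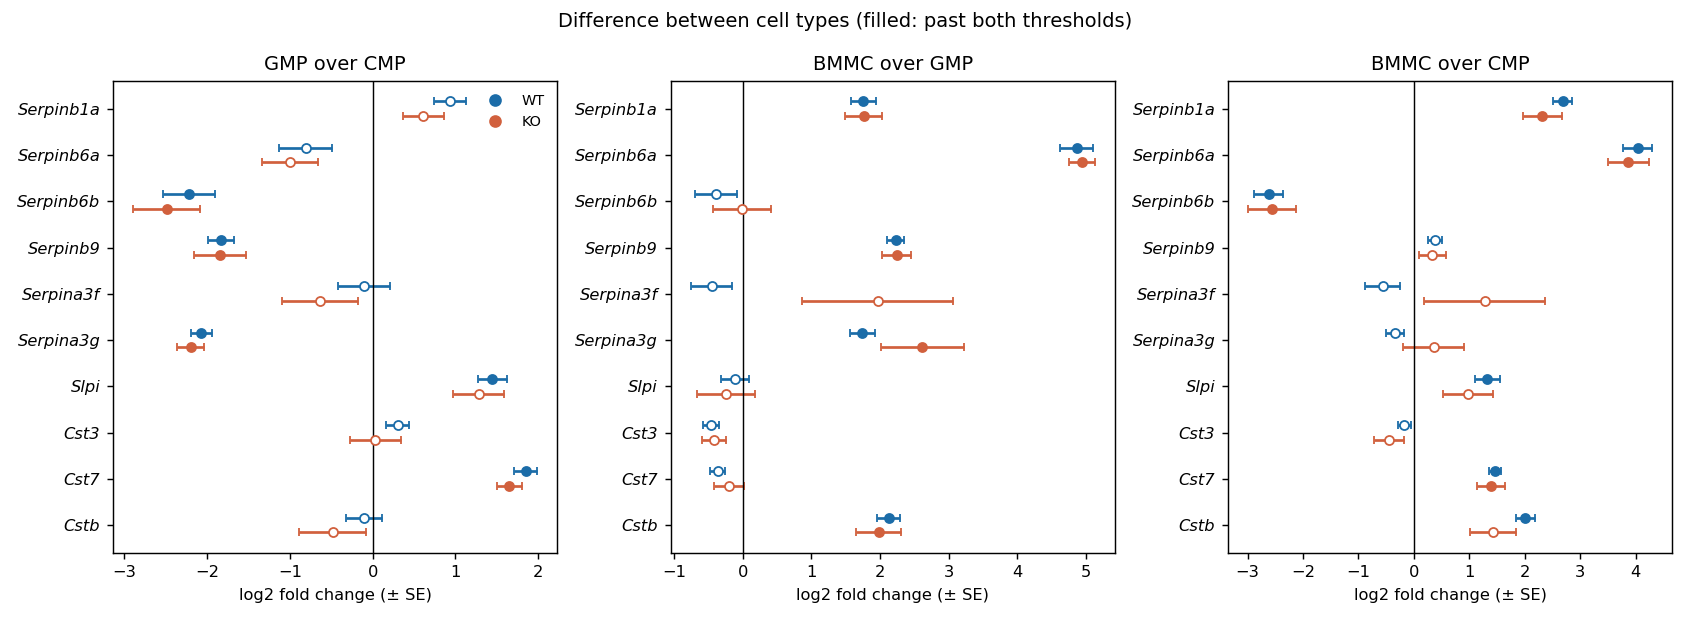
Log2 fold change of each inhibitor gene between cell types (x axis, points with bars of 1 SE), in WT (blue) and KO (orange) libraries; filled points passed both thresholds and open points did not. In the panel of GMPs over CMPs, Serpina3g, Serpinb6b and Serpinb9 lie left of 0 and Cst7 and Slpi right of it in both genotypes, and Serpinb6a lies farthest right in both BMMC panels.

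The proteases of the same compartments were described as a list of 28 granule and lysosomal enzymes. It holds enzymes that these inhibitors act on, such as elastase and the cathepsins, beside others that they are not known to inhibit, among them the peroxidase Mpo, the mast cell tryptases and the carboxypeptidase Cpa3. In WT GMPs over CMPs, 19 of them could be tested, 12 were higher and 2 lower, with a median log2 fold change of 1.71. Of all genes, 6.28% were higher and 6.53% lower, with a median of -0.02. In KO GMPs over CMPs, 10 of 19 were higher and 0 lower, beside 4.04% and 4.38% of all genes. Genes could be tested if they passed the low-count filter, for which a high level in 1 group can suffice. These counts are therefore a description. Elane, which encodes neutrophil elastase, rose from 650.3 ± 366 nRPKM (SD, n = 4) in CMPs to 8488 ± 1609 (SD, n = 4) in GMPs, and Prtn3, which encodes proteinase 3, from 1398 ± 495 to 6609 ± 1015 (SD, n = 4 each). Their log2 fold changes were 3.72 (SE 0.40) and 2.26 (SE 0.23), both larger than that of any of the 10 members. Among 71 other inhibitor genes in the files, only 11 could be tested in WT GMPs over CMPs, 1 was higher and 4 were lower. The shares of all genes were again 6.28% and 6.53%. The higher one was Wfdc21, a relative of Slpi, at 1.09 ± 0.860 nRPKM in CMPs and 47.7 ± 19.3 in GMPs (SD, n = 4 each). Wfdc17, another gene of that family, was lower, at 29.9 ± 8.99 nRPKM in CMPs and 2.65 ± 1.68 in GMPs (SD, n = 4 each).

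The ratio of RNA for Elane, Prtn3 and Ctsg together to RNA for Serpinb1a was 15.3, 20.2, 26.5 and 27.7 in the WT CMP libraries and 67.2, 66.6, 82.7 and 79.5 in the WT GMP libraries. In WT BMMCs it was 1.06, 0.851, 0.904, 0.624 and 0.755. Nearly all of the protease RNA in WT BMMCs was Ctsg, at 575 to 1084 nRPKM. Prtn3 was at most 11.8 nRPKM there and Elane at most 0.686, so the ratio does not describe these 2 genes in BMMCs. The groups did not overlap, and the KO groups lay at 21.0 to 32.0 in CMPs, 59.3 to 79.0 in GMPs and 0.643 to 0.850 in BMMCs. These ratios of nRPKM compare RNA levels per length and not protein. They are a description without a test. The ratio of 6 cysteine cathepsins (Ctsb, Ctsc, Ctsh, Ctsl, Ctss and Ctsz) to the 3 cystatins was 0.264 to 0.349 in WT CMPs, 0.295 to 0.420 in WT GMPs and 1.80 to 2.28 in WT BMMCs. In KO BMMCs it was 2.30, 2.60, 0.366, 2.52 and 3.06, so that library 3 fell in the range of the progenitors.

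**Figure D4:**
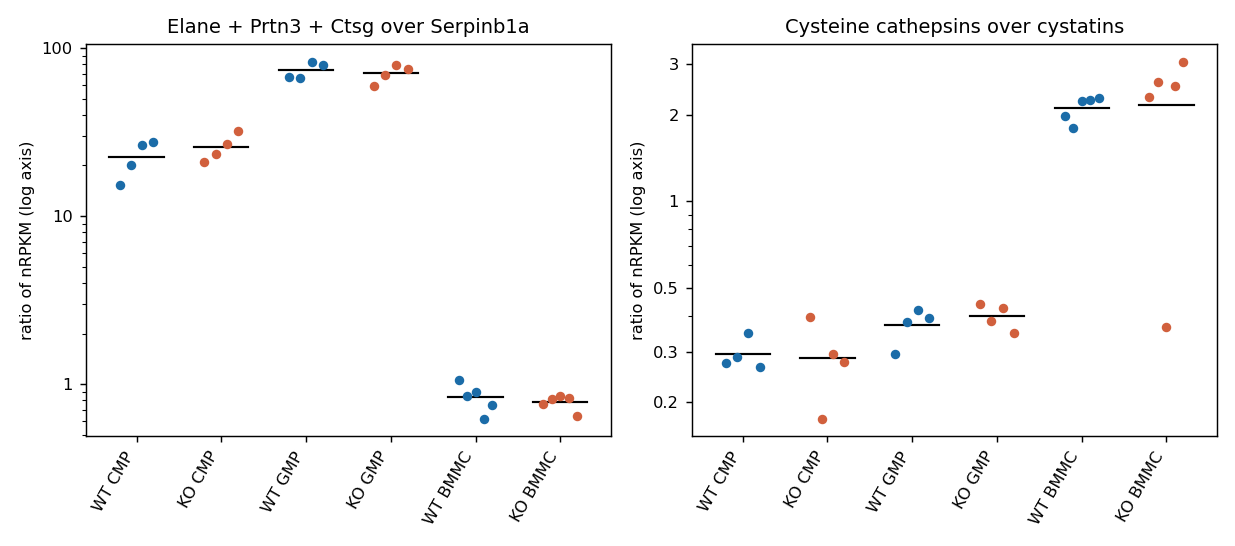
Ratio of summed nRPKM in each library (log axis) by group (x axis), for Elane, Prtn3 and Ctsg over Serpinb1a (left) and for 6 cysteine cathepsins over Cst3, Cst7 and Cstb (right); lines are group means. The left ratio is highest in GMPs and near 1 in BMMCs, where nearly all of its protease RNA is Ctsg. In the right panel 1 KO BMMC library lies at 0.366 below the other BMMC libraries.

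BMMCs were set beside the GMPs from which they are grown. In WT libraries 5 of the 10 members passed, all of them higher in BMMCs. This share was close to the 51.7% of all genes that passed, 27.3% higher and 24.4% lower in BMMCs. The groups did not overlap for these 5 members, as for 75.3% of all genes. They were Serpinb6a, Serpinb9, Cstb, Serpinb1a and Serpina3g, and the same 5 passed in the KO libraries, where 47.9% of all genes passed, 25.6% higher and 22.3% lower, and 65.0% did not overlap. The WT and KO comparisons used different libraries throughout.

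Serpinb6a was at 6.25, 4.82, 3.13 and 2.98 nRPKM in WT GMPs and at 105, 144, 135, 147 and 136 in WT BMMCs. Its log2 fold change of 4.86 (SE 0.24, adjusted p = 3.22e-09) corresponds to 29.1-fold, and in the KO libraries it was 4.93 (SE 0.19, adjusted p = 6.22e-08). All BMMC libraries were far above all progenitor libraries. Part of the Serpinb6a transcripts, 25.1% of their 50-base windows, also occurs in transcripts of other genes, mainly the neighbour Nqo2, so some of its reads could be split or lost. The strand setting of the counting is not given, so reads of a neighbour could also have been counted for Serpinb6a. Serpinb1a was at 372, 257, 225 and 228 nRPKM in WT GMPs and at 939, 1276, 864, 929 and 882 in WT BMMCs, with a log2 fold change of 1.76 (SE 0.18, adjusted p = 1.73e-06). In the KO libraries the log2 fold change was 1.76 (SE 0.27, adjusted p = 0.000201).

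Cstb encodes a cystatin of the cytosol that inhibits cathepsins. It was at 145, 81.1, 99.8 and 98.5 nRPKM in WT GMPs and at 489, 467, 555, 432 and 525 in WT BMMCs, with a log2 fold change of 2.12 (SE 0.16, adjusted p = 1.38e-07). In the KO libraries the log2 fold change was 1.98 (SE 0.33, adjusted p = 0.000397). Macrophage and dendritic cell markers were higher in the same direction, at 95.5 to 115 nRPKM in WT GMPs and 1879 to 2818 in WT BMMCs. Mast cell markers were higher too, at 547 to 679 nRPKM in WT GMPs and 31260 to 46778 in WT BMMCs. Cstb was lowest in the BMMC library where macrophage and dendritic cell markers were lowest, KO BMMC library 3. It was at 211 nRPKM there, beside 70.3 to 163 in KO GMPs. Without that library, the log2 fold change of Cstb in the KO libraries was 2.17. The part of either marker set was not tested. Serpinb9 rose from 1.33 to 1.67 nRPKM in WT GMPs to 5.93 to 7.68 in WT BMMCs, with a log2 fold change of 2.23 (SE 0.13, adjusted p = 8.68e-09). Serpina3g rose from 17.4 to 22.9 nRPKM to 47.0 to 88.3, with a log2 fold change of 1.74 (SE 0.18, adjusted p = 1.89e-06). Its KO value, 2.61 (SE 0.61, adjusted p = 0.00304), was 1.79 without KO BMMC library 3. The Serpina3g difference in KO libraries did not pass with the replicate number as a block, at 2.18, nor without KO GMP library 1, 3 or 4, at 2.57 to 2.65.

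Cst3, Cst7, Slpi, Serpinb6b and Serpina3f did not pass between BMMCs and GMPs in either genotype. Cst3 and Cst7 had adjusted p-values of 0.00272 and 0.00972 in WT libraries, with log2 fold changes of only -0.46 (SE 0.12) and -0.36 (SE 0.11). Slpi had a log2 fold change of -0.11 (SE 0.21) and varied among WT BMMC libraries from 191 to 402 nRPKM.

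Against WT CMPs, 6 members passed in WT BMMCs, where 57.5% of all genes passed, 29.6% higher and 27.9% lower. The groups did not overlap for 7 members, and for 76.9% of all genes. Serpinb6a, Serpinb1a, Cstb, Cst7 and Slpi were higher, with log2 fold changes of 4.03 (SE 0.26), 2.68 (SE 0.17), 2.01 (SE 0.17), 1.47 (SE 0.11) and 1.32 (SE 0.22). Serpinb6b was lower, at 0.849 to 1.74 nRPKM in BMMCs and 4.43 to 8.89 in CMPs, with a log2 fold change of -2.62 (SE 0.26, adjusted p = 7.86e-07). Serpinb9, at 5.93 to 7.68 nRPKM in WT BMMCs and 4.04 to 5.83 in WT CMPs, had a log2 fold change of 0.38 (SE 0.13, adjusted p = 0.0178). Serpinb9 and Serpina3g thus passed in both comparisons with GMPs, where they were lowest, but not between BMMCs and CMPs. The KO libraries gave 4 members, Serpinb6a, Serpinb1a, Cst7 and Serpinb6b, beside 52.3% of all genes. Their groups did not overlap for 4 members, and for 61.3% of all genes. Cstb had an adjusted p of 0.0106 there. Without KO BMMC library 3 and KO CMP library 2, an alternative chosen after seeing the data, Cstb and Slpi passed as well, at 2.10 (SE 0.26) and 1.47 (SE 0.33).

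Of the 28 listed enzymes, 25 could be tested in WT BMMCs over GMPs, and 16 were higher and 7 lower. Of all genes, 27.3% were higher and 24.4% lower. Elane, Prtn3 and Mpo were each below 6 nRPKM on average in WT BMMCs, while Tpsb2, a mast cell tryptase, and Cpa3, mast cell carboxypeptidase, averaged 17611 ± 4384 and 12982 ± 2487 nRPKM (SD, n = 5). Of the 71 other inhibitors, 16 could be tested, 9 were higher and 6 lower, beside the same shares of all genes. Here too a high level in 1 group can suffice for the low-count filter, so these counts are a description. Spint1, a Kunitz-type inhibitor of membrane serine proteases, averaged 53.7 ± 5.66 nRPKM in WT BMMCs (SD, n = 5) and 0.00383 ± 0.00443 in WT GMPs (SD, n = 4), and Spint2 of the same family was lower, at 18.2 ± 4.38 and 84.3 ± 13.7. Serpinf1 averaged 0.582 ± 0.306 nRPKM in WT BMMCs and 62.6 ± 7.29 in WT GMPs.

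Whether loss of NSP4 altered the inhibitors was examined within each cell type. None of the 10 members passed in GMPs, CMPs or BMMCs by edgeR, limma voom or DESeq2, and none had an unadjusted p under 0.05 in the main edgeR fits. Over all genes, 0.00681% passed in GMPs and 0.0067% in CMPs, in each case Prss57 itself, and 0.0% in BMMCs. WT and KO libraries overlapped for all 10 members in each cell type, whereas 0.994% of all genes in GMPs, 0.818% in CMPs and 0.717% in BMMCs did not overlap. At an unadjusted p under 0.05 there were 119 of 14689 genes tested in GMPs, 76 of 14916 in CMPs and 332 of 13938 in BMMCs. Each count is below the share that this limit marks by chance. The absence of members among these genes therefore says little about the members. In GMPs, the log2 fold changes of KO over WT lay between -0.32 (Serpinb6b, SE 0.37) and 0.04 (Cstb, SE 0.26). Serpinb1a, with 236, 256, 235 and 313 nRPKM in KO GMPs beside 372, 257, 225 and 228 in WT GMPs, had a log2 fold change of -0.05 (SE 0.17). Cst7, the cathepsin C inhibitor, had -0.12 (SE 0.12), and Slpi had 0.03 (SE 0.21). The groups of all these genes overlapped. A p that misses the threshold does not show equal levels. The SEs in GMPs ran from 0.12 for Cst7 to 0.37 for Serpinb6b, the least precise of the members.

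In CMPs, the values lay between -0.06 (Serpinb9, SE 0.27) and 0.43 (Cstb, SE 0.38). Cstb was at 67.8, 286, 123 and 157 nRPKM in KO CMPs and at 141, 110.2, 74.4 and 135 in WT CMPs. The 286 belonged to KO CMP library 2, and without it the log2 fold change of Cstb was -0.0034. In nRPKM the same library was the highest of all CMP libraries for every member but Serpina3f. Among them were Cst3 (1375 nRPKM), Serpinb6a (17.3), Serpinb6b (11.8), Serpinb9 (7.83), Slpi (167) and Serpinb1a (242). Its size factor was 0.776, the lowest of the progenitor libraries, and its nRPKM of all genes summed highest. When counts were scaled by total reads on genes alone (CPM), it was highest only for Serpinb6a, Cst3 and Cstb. On that scale it was the lowest CMP library for Cst7 (125 CPM) and Serpina3g (163 CPM). For the other members it lay inside the range of the other CMP libraries. An interaction term was fitted, which compares the effect of genotype in GMPs with that in CMPs. It passed for none of the members and for 0.0% of all genes, and 169 of 15900 genes tested had an unadjusted p under 0.05. All 10 estimates were below 0, from -0.54 to -0.03. Without KO CMP library 2, 6 of them turned above 0, of which Serpinb6a had the highest value, 0.28.

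**Figure D5:**
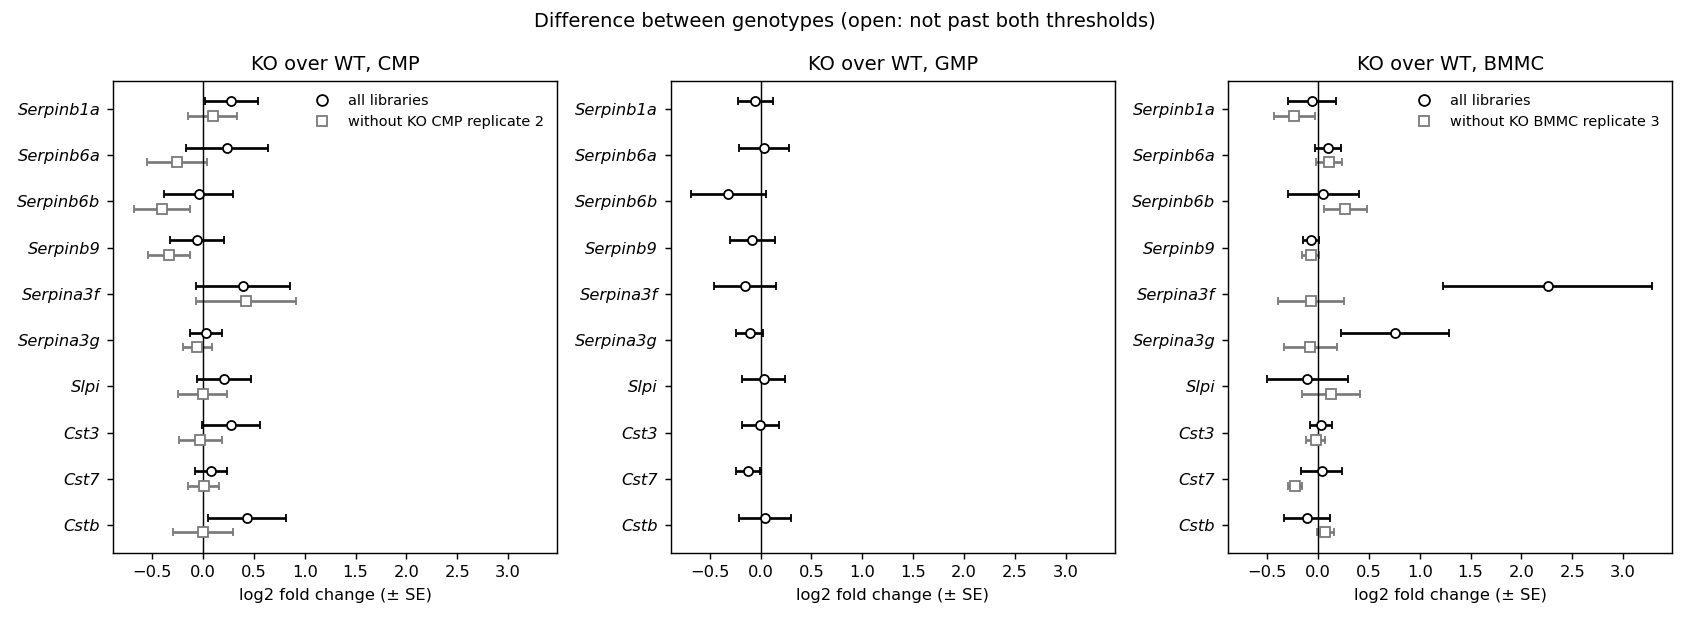
Log2 fold change of KO over WT for each inhibitor gene (x axis, points with bars of 1 SE) in CMPs, GMPs and BMMCs; circles are fits of all libraries and squares fits without KO CMP library 2 or KO BMMC library 3. All points are open, so no gene passed, and Serpina3f in BMMCs moves from 2.26 to -0.07 without that library.

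In BMMCs, the estimates lay between -0.11 and 0.10 for 8 of the members. Serpina3f and Serpina3g had larger estimates, 2.26 (SE 1.03, adjusted p = 1 by edgeR) and 0.76 (SE 0.53). Serpina3f was at 0.519, 0.396, 0.228, 0.531 and 0.518 nRPKM in WT BMMCs and at 0.210, 0.392, 9.01, 0.577 and 0.472 in KO BMMCs. Serpina3g was at 74.4, 47.0, 61.1, 85.8 and 88.3 nRPKM in WT BMMCs and at 39.5, 56.9, 333, 97.3 and 77.8 in KO BMMCs. In both genes only KO BMMC library 3 lay above the WT range by a wide margin. In that library Serpina3f held 353 reads, against 10 to 37 in the other KO libraries. Without it the log2 fold changes were -0.07 (SE 0.33) and -0.08 (SE 0.26). The paralogs share sequence, with 10.6% of the 50-base windows of Serpina3f and 15.5% of those of Serpina3g found in another gene's transcripts, mostly of the same family.

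KO BMMC library 3 differed in other inhibitors too. Cst7 was at 582 nRPKM there and at 275 to 322 in the other KO BMMC libraries, Cstb at 211 against 487 to 583, Slpi at 78.6 against 158 to 377, and Serpinb6b at 0.400 against 1.34 to 1.58. Serpinb1a, at 1371, was the highest of its group, while Serpinb9 (6.84), Serpinb6a (137) and Cst3 (777) were inside or near the range of the others. Gzmb, which encodes the granzyme B that Serpinb9 inhibits was singled out only once its values had been seen. It was at 773 nRPKM there and at 107, 90.8, 189 and 94.3 in the other KO BMMC libraries. The 6 cysteine cathepsins summed to 575 nRPKM in this library and to 3333 to 4912 in the other KO BMMC libraries. Mast cell markers summed to 75417 nRPKM, beside at most 46778 in any WT BMMC library. This did not hold for each marker. Tpsb2 was at most 22372 nRPKM in any KO BMMC library and 22650 in WT, and Hdc at most 150 and 175. Cstb and the cathepsins were thus low in the library in which macrophage and dendritic cell markers were low. The summed mast cell markers, Cst7 and the Serpina3 pair were high in it. The part of these markers in the levels was not tested. Without this library, Cst7 had a log2 fold change of KO over WT of -0.22 (SE 0.07, adjusted p = 0.581 by edgeR), with 275 to 322 nRPKM in KO and 317 to 369.6 in WT BMMCs.

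The genes whose profile over the 26 libraries was most like that of each member were found by the Pearson correlation of log2 CPM. The libraries form 3 cell types, so these values mostly describe shared cell type levels, and they are given without a test. Serpinb1a was nearest to Alox5ap (r = 0.977), Pilrb2 (r = 0.970) and Nagk (r = 0.969), and Serpinb6a to Rgs1 (r = 0.992), Dusp1 (r = 0.991) and 2210408F21Rik (r = 0.991). Cst7 was nearest to Gfi1, which encodes a transcription repressor of granulocyte precursors (r = 0.953), Agps (r = 0.953) and Alox15 (r = 0.945). Serpina3g was nearest to Mycn (r = 0.942), Ntn4 (r = 0.932) and Gata1 (r = 0.930), the last a factor of the erythroid and mast cell lineages. For Cstb the nearest were S100a4 (r = 0.980), Stx7 (r = 0.962) and Gm6977 (r = 0.956). Serpinb6b had Gulp1 (r = 0.969), Trim13 (r = 0.967) and Casp12 (r = 0.967), Serpinb9 had Cd9-ps (r = 0.972), Fbxo8 (r = 0.970) and Cd9 (r = 0.967), Slpi had Fkbp1b (r = 0.923), Id1 (r = 0.910) and Atp6ap2 (r = 0.900), and Cst3 had Trappc2l (r = 0.947), Tmem141 (r = 0.943) and Gm12481 (r = 0.942). The lowest values were those of Serpina3f, with Fgd2 (r = 0.888), Syp (r = 0.846) and Uck1 (r = 0.810).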

How the data were processed

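Total RNA of 26 samples was sequenced with a stranded kit as single-end reads. Alignment by the authors used GSNAP (HTSeqGenie) and GRCm38, and reads aligned uniquely within exons were counted per gene. The strand setting and annotation release are not given in the sources used here. The deposited files hold raw counts for each library and nRPKM, an RPKM that the authors normalised by a size factor. Symbols and positions came from GENCODE M21, which matched 52403 of 52636 genes.

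Groups followed the labels. Counts of the groups compared were tested with edgeR 4.0.16 in R 4.3.3 (TMM, filterByExpr, robust quasi-likelihood fit, Benjamini-Hochberg adjustment). A gene passed with a fold change of 2 or more whose adjusted p was under 0.01, and the interaction needed only the latter. All 10 members passed the low-count filter in every comparison. SEs were derived from the F statistic. The study describes the samples of a group as biological replicates. The labels do not say whether CMP and GMP libraries of the same number came from the same mice. All pairs of libraries of a group differed by more than counting error. No correction for duplicate molecules was made.

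The members, lists and motifs were chosen with earlier results of these data known. The text names all members, Prss57, genes of the enzyme and inhibitor lists that passed (at most the 8 most abundant of each in a comparison), and the 3 genes most alike to each member among 13198 genes with a mean of at least 1 CPM (log2 of CPM + 1). Of 73 other inhibitors, 71 were in the files. Of the marker lists, 6 late neutrophil markers summed to 819 to 5163 nRPKM in GMPs and 10.5 to 114 elsewhere, 3 basophil markers to 1637 to 2499 in GMPs and 23.4 to 835 elsewhere, and 5 B and T cell markers to at most 51.0 in any library.

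Alternatives were limma voom (limma 3.58.1), DESeq2 1.42.0, RLE size factors, dropping the filter, a replicate block, a joint fit of the 26 libraries, omission of single libraries, and an adjusted p under 0.05 with no fold limit. In simulated data with 200 changed genes, the test recovered 170 for WT GMPs over CMPs, 154 for KO GMPs over CMPs, 181 for KO over WT GMPs, 147 for KO over WT CMPs, 168 for KO over WT BMMCs, 183 for WT and 154 for KO BMMCs over GMPs, and 181 for WT and 131 for KO BMMCs over CMPs, with at most 3 false calls among 13815 to 14848 genes. All planted changes were larger than 2-fold, and counts were drawn independently, without a library that stood apart. The recovery therefore does not tell how often smaller differences, such as most of those between genotypes, would be found. Promoters came from RefSeq tables of GRCm38.p6 and were aligned with biopython 1.88. Tables and figures were made in Python 3.11.15 with pandas 2.3.3 and matplotlib 3.10.9.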

Additional observations from a re-analysis of the deposited data

Results flagged for a closer look

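In the group of each gene below, the highest or lowest library stood apart from its nearest neighbour by more than Dixon's 95% critical value. Chance alone would mark about 1 in 20 groups, and 12 of the 65 groups tested were marked. KO BMMC library 3 accounted for 5 of them, with Serpina3f at 9.01 nRPKM, Serpina3g at 333 and Cst7 at 582 as the highest of their group, and Cstb at 211 and Serpinb6b at 0.400 as the lowest. In the other 4 KO BMMC libraries these genes ranged from 0.210 to 0.577, from 39.5 to 97.3, from 275 to 322, from 487 to 583 and from 1.34 to 1.58 nRPKM.

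Serpinb6a was at 17.3 nRPKM in KO CMP library 2 and at 5.90 to 6.81 in the other KO CMP libraries. WT BMMC library 1 was the lowest for Serpinb6a, at 105 nRPKM against 135 to 147, and for Serpinb9, at 5.93 against 7.22 to 7.68. Serpinb1a was at 1276 nRPKM in WT BMMC library 2 and at 864 to 939 in the others. Serpinb9 was at 0.792 nRPKM in KO GMP library 3 and at 1.496 to 1.62 in the other KO GMPs. WT GMP library 1 was the highest of its group for Serpina3f, at 0.816 nRPKM against 0.440 to 0.500, and for Prss57, at 198 against 123 to 133.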

How the results depend on the processing

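Of 100 fold changes of members, 36 changed sign under some setting, and none of these had passed. The number of members that passed stayed at 0 in every genotype comparison and the interaction under all settings. With the 2-fold limit kept, it was 5 to 6 in WT and 2 to 5 in KO GMPs over CMPs, beside 1542 to 2515 and 785 to 2307 of all genes. In BMMCs over GMPs it was 5 in WT and 4 to 5 in KO, beside 7391 to 8685 and 5781 to 7973 of all genes. In BMMCs over CMPs it was 6 in WT and 4 to 6 in KO, beside 8336 to 9641 and 6239 to 9204 of all genes. Over all genes, leaving out 1 library gave 785 to 2266 genes in KO GMPs over CMPs, beside 1259 with all, and 1 to 2 in KO over WT GMPs. The 2266 were found without KO CMP library 1, against 1345 without KO CMP library 2. In WT GMPs over CMPs, 2515 genes passed without WT GMP library 1 and 2383 without WT CMP library 3, beside 1918 with all. At an unadjusted p under 0.05 by edgeR, KO over WT CMPs had 561 genes without KO CMP library 1, beside 76 with all. DESeq2 gave 2156 in KO GMPs over CMPs, 2 in KO over WT GMPs and 3 in KO over WT CMPs, and the fit of all 26 libraries 2307 in KO GMPs over CMPs. An adjusted p under 0.05 without a fold limit gave 5664 genes in WT and 3222 in KO GMPs over CMPs, and 2 in KO over WT GMPs. It gave 12030 genes in WT and 11032 in KO BMMCs over GMPs, and 12552 and 10812 in BMMCs over CMPs. Members that passed so were 6 in WT and 5 in KO GMPs over CMPs. In BMMCs they were 7 in WT and 5 in KO, over GMPs and over CMPs alike. The 7 stand beside 12030 of 14754 and 12552 of 15007 genes tested.

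Same-numbered libraries had a correlation of deviations over 0.1 in at most 3 of 4 pairs of any comparison, so the numbers were not taken to pair the samples. Their mean correlation was 0.13 in WT and 0.18 in KO GMPs over CMPs, beside -0.047 and -0.059 for libraries of different numbers. Centring each group on its mean pushes the latter below 0 whenever the former are above 0. In KO over WT CMPs, whose libraries cannot share a mouse, the mean for same-numbered libraries was 0.16. Whether same-numbered CMP and GMP libraries share a source is not given in the sources used here. With the replicate block, members that passed were 5 in WT and KO GMPs over CMPs, 5 in WT and 4 in KO BMMCs over GMPs and 6 in WT and 4 in KO BMMCs over CMPs, and all genes that passed went from 1918 to 2000 in WT GMPs over CMPs and from 7897 to 6239 in KO BMMCs over CMPs. The block turned Slpi to -0.0075 in KO over WT GMPs, Cst7 to -0.030 in KO over WT BMMCs and Serpina3g to -0.047 in KO BMMCs over CMPs. Limma voom turned Slpi to -0.016 and Cstb to -0.0080 in KO over WT GMPs, Serpinb6b to -0.0025 and Cst7 to -0.011 in KO over WT BMMCs, Serpina3f to -0.16 and Serpina3g to -0.069 in KO BMMCs over CMPs and Serpinb9 to 0.016 in the interaction, where it was 0.021 without a filter. Cst3 in KO over WT GMPs was 0.0017 with DESeq2, 0.0017 with RLE size factors and 0.0023 without a filter. Serpinb6b in KO BMMCs over GMPs was 0.041 with DESeq2, 0.041 with RLE size factors and 0.0014 in the fit of all 26 libraries. In KO BMMCs over CMPs without KO BMMC library 3 and KO CMP library 2, chosen after seeing the data, Serpina3f was -1.04 and Serpina3g -0.34.

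Serpina3g in KO BMMCs over GMPs missed the threshold without the filter, at 2.57, and Cstb in KO BMMCs over CMPs passed with limma voom, DESeq2, RLE size factors, no filter and all 26 libraries, at 1.48 to 1.53. Where leaving out 1 library changed a sign, these were the lowest and highest log2 fold changes over the libraries left out. In WT GMPs over CMPs they were Serpina3f -0.32 to 0.10 and Cstb -0.27 to 0.015. In KO GMPs over CMPs they were Cst3 -0.16 to 0.32. In KO over WT GMPs they were Serpinb1a -0.15 to 0.14, Serpinb6a -0.099 to 0.27, Serpinb9 -0.18 to 0.11, Serpina3f -0.37 to 0.086, Slpi -0.12 to 0.20, Cst3 -0.17 to 0.14 and Cstb -0.22 to 0.23. In KO over WT CMPs they were Serpinb6a -0.26 to 0.41, Serpinb6b -0.40 to 0.12, Serpinb9 -0.34 to 0.079, Serpina3g -0.056 to 0.089, Slpi -0.0054 to 0.38, Cst3 -0.029 to 0.45, Cst7 -0.020 to 0.14 and Cstb -0.0034 to 0.66. In KO over WT BMMCs they were Serpinb1a -0.24 to 0.069, Serpinb6b -0.055 to 0.27, Serpina3f -0.066 to 2.58, Serpina3g -0.076 to 1.00, Slpi -0.30 to 0.12, Cst3 -0.022 to 0.094, Cst7 -0.22 to 0.11 and Cstb -0.21 to 0.071. In KO BMMCs over GMPs they were Serpinb6b -0.17 to 0.32 and Serpina3f -0.37 to 2.27. In KO BMMCs over CMPs they were Serpina3g -0.45 to 0.60. In the interaction they were Serpinb6a -0.38 to 0.28, Serpinb6b -0.57 to 0.080, Serpinb9 -0.17 to 0.24, Slpi -0.36 to 0.020, Cst3 -0.46 to 0.010 and Cstb -0.64 to 0.029. Serpina3f in KO BMMCs over CMPs also changed sign. It ran from -1.04 to 1.59 with the fit without both KO BMMC library 3 and KO CMP library 2 included. The cause was not tested. Serpina3f had the fewest reads of the members, 10 to 185 in every library but KO BMMC library 3.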
